A study of Homo sapiens with 12 samples.

Results

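ZBTB genes encode transcription factors that carry a BTB domain at the N terminus and C2H2 zinc fingers towards the C terminus. The genes described here are the rows of the count table whose symbol is ZBTB followed by a number, with or without the letter A or B, which gave 40 of the 24302 features. 38 of them had counts and all 38 were tested, while ZBTB16 and ZBTB8B had 0 counts in all 12 libraries. A total of 0 counts allows a level of up to 0.00661 CPM (3 counts over the 12 libraries, counting error only). RNA came from KYSE150, a widely used human cell line derived from a squamous carcinoma of the esophagus, in 4 groups of 3 libraries. One group carried a GFP fusion of TFAP2β labelled Mut_IDR3. Another carried GFP-TFAP2β-ΔIDR3, and another GFP-TFAP2β with no alteration named in the labels (WT here). The control cells carried GFP. TFAP2β belongs to the AP-2 transcription factors, an IDR is an intrinsically disordered region, and the series describes both altered forms as deficient in phase separation. The series title speaks of overexpression, and the vector, its promoter and the number of clones are not given in the sources used here. The labels do not say that the 3 replicates were separate cultures, so each p-value reflects the variation among these 12 libraries alone, part or all of which may be technical.

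In this family the BTB domain pairs the protein with itself or a relative and, in many members, binds corepressors such as NCOR and BCOR or the ubiquitin ligase scaffold CUL3, and the zinc fingers read DNA. Many members are known as repressors that fix lineage choices in blood cells. Others bind methylated DNA or telomeric repeats, or work with MYC at cell-cycle genes. ZNF131, outside the naming rule, has the same BTB and zinc-finger design.

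The stretches before the start sites of ZBTB32, ZBTB42 and ZBTB24 are shown because ZBTB32 and ZBTB42 rose most with WT and ZBTB24 stood most above WT with both altered forms. They are the 250 bases upstream of the start in RefSeq, build GRCh38.p14, read 5′ to 3′ on the strand of the gene. Capitals mark a match to the palindromic AP-2 motif GCCNNNGGC.
ZBTB32: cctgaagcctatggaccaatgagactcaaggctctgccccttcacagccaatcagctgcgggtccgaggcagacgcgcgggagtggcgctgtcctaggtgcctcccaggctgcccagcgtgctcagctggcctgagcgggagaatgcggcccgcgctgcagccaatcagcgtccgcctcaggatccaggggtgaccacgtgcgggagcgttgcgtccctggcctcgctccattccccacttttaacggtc
ZBTB42: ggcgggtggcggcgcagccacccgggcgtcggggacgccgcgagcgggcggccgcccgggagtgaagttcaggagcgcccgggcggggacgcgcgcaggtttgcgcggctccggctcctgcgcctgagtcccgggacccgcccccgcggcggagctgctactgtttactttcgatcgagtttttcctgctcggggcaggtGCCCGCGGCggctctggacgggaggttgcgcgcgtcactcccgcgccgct
ZBTB24: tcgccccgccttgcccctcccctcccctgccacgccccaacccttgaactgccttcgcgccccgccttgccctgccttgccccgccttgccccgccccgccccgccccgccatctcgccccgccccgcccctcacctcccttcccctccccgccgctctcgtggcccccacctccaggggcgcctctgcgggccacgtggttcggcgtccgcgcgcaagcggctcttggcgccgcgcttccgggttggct
The first lies at chr19:35704308-35704557 on the plus strand and the second at chr14:104800851-104801100 on the plus strand. The ZBTB24 stretch lies at chr6:109483220-109483469 on the minus strand. ZBTB42 held 1 match here, and ZBTB32 and ZBTB24 held 0. RefSeq windows of 250 bases upstream and 50 downstream were found for 34 of the 40 genes, several genes having more than 1 window, and ZBTB6, ZBTB10, ZBTB16, ZBTB17, ZBTB40 and ZBTB41 had no window. At least 1 match stood in 15 of the 34 genes (44.1%), against 26.6% of 27305 symbols with windows. Counted by window, the shares were 30.8% of 65 windows of ZBTB genes and 23.2% of 35116 windows. Of the genes that rose with WT 2 of 10 held a match, of those that fell 7 of 11, and of those not called 6 of 12. By window these shares were 14.3% of 14, 40.7% of 27 and 30.4% of 23. A gene with more windows has more places for a match, and ZBTB38, among those that fell, had the most windows. The median GC content was 62.7% in windows of ZBTB genes and 58.7% in all windows. It was 65.2%, 62.0% and 57.7% for genes that rose, fell and were not called. A match is a string of letters and does not show a bound site.

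The level of the family in these cells differed widely between members. Per kilobase of the longest GENCODE 29 transcript, the mean over the 12 libraries was highest for ZBTB4 (9.48 CPM per kb), ZBTB7B (8.62 CPM per kb) and ZBTB2 (8.43 CPM per kb). It was lowest among the tested members for ZBTB20, at 0.0103 CPM per kb. CPM is the count of a gene scaled to the size of its library, with TMM factors. The summed level of the 40 genes was 579.9 to 582.8 CPM in the Mut_IDR3 libraries, 566.1 to 603.1 CPM in the ΔIDR3 libraries, 582.6 to 641.2 CPM in the WT libraries and 639.1 to 665.3 CPM in the GFP libraries.

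The libraries held 30.7 M to 43.5 M counts. TFAP2B RNA stood at 687, 732 and 687 CPM with Mut_IDR3, 739, 742 and 632 CPM with ΔIDR3, 285, 232 and 323 CPM with WT, and 0, 0.279 and 0.0924 CPM with GFP. It was thus higher in both altered forms than in WT, by a log2 fold change of 1.32 ± 0.12 for Mut_IDR3 and 1.33 ± 0.12 for ΔIDR3 (± is the standard error, SE, of a log2 fold change throughout). The part of this difference in the results between the forms was not tested. The 7 squamous markers KRT5, KRT14, KRT17, KRT6A, TP63, EPCAM and CDH1 summed to 5195 to 5347 CPM with Mut_IDR3, 4411 to 4666 CPM with ΔIDR3, 6681 to 7753 CPM with WT and 5087 to 5289 CPM with GFP. Single markers went both ways against GFP. Their log2 fold changes were -2.0 to 0.3 with Mut_IDR3, -2.3 to 0.1 with ΔIDR3 and -0.4 to 1.8 with WT. The 6 fibroblast markers summed to at most 6.56 CPM and the 3 endothelial markers to at most 1.8 CPM, with PECAM1 at 0. PTPRC was at 0 counts, and the 5 leukocyte markers summed to 49.5 to 102.4 CPM, nearly all from CD68. Mitochondrially encoded mRNA took 8.20 to 8.63% of counts with Mut_IDR3, 7.67 to 7.79% with ΔIDR3, 5.38 to 6.09% with WT and 9.92 to 10.7% with GFP.

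Unaltered TFAP2β was set against GFP to ask which ZBTB genes respond to the factor. With WT, 11 of the 38 tested ZBTB genes rose and 12 fell at an adjusted p under 0.05 (edgeR's quasi-likelihood test, adjusted over all 14792 features tested). These 23 are 60.5% of the tested members, against 54.9% of all features called (27.7% higher and 27.1% lower), so the share is near the background. The median log2 fold change of the 38 was -0.05, against -0.01 for all features. The GC trend and the length trend are the drifts of log2 counts with the GC content or length of the transcript that are seen in each library over all genes. The median of the 38 was 0.01 after removal of the GC trend and 0.03 after removal of the length trend. The libraries did not overlap between the 2 groups in 9 of the 11 that rose and in 12 of the 12 that fell. Over all features called, libraries did not overlap in 94.1% of those higher and 95.8% of those lower, so this separation is not particular to the ZBTB genes. With any 1 of the 12 libraries left out, 21 to 24 were called. The share was 55.3%, against 48.4% of all features, without WT replicate 1 and 63.2%, against 55%, without WT replicate 2. Exons of 11 of the 40 genes overlap a gene on the other strand and those of 5 a gene on the same strand, and the strand setting of the counting is not given in the sources used here, so their counts are uncertain. In RNA from whole cultures, fewer cells that express a gene and less RNA per cell cannot be told apart.

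ZBTB32, a repressor known from T and B lymphocytes, moved most. It stood at 0, 0 and 0.0232 CPM with Mut_IDR3, 0.125, 0.0519 and 0.0242 CPM with ΔIDR3, 4.35, 3.7 and 2.99 CPM with WT, and 0.0869, 0 and 0.254 CPM with GFP. Every WT library was above every other library. The counts summed to 407 with WT and 14 with GFP, a ratio of 28.7 (95% counting interval 16.9 to 52.9), and the fitted log2 fold change was 4.88 ± 0.67 (adjusted p = 1.97e-05). ZBTB32 passed the filter on low counts through the WT libraries alone, so its calls are a description of a gene kept for its high group. Without GFP replicate 3, the highest GFP library, the fitted log2 fold change was 6.27. The gene lies on chromosome 19 from 35704527 to 35717038 (GENCODE 29, GRCh38).

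ZBTB42, a gene active in skeletal muscle, stood at 3.5, 3.23 and 2.6 CPM with Mut_IDR3, 1.5, 1.35 and 1.6 CPM with ΔIDR3, 4.57, 4.97 and 5.46 CPM with WT, and 2.58, 2.92 and 2.03 CPM with GFP. Its WT libraries were all above its GFP libraries, and it rose (log2 fold change 1.00 ± 0.20, adjusted p = 0.000529). ZBTB48, which encodes the telomere-binding protein TZAP, stood at 8.81, 12.4 and 9.56 CPM with Mut_IDR3, 8.58, 9.2 and 9.75 CPM with ΔIDR3, 15.9, 14.3 and 17.5 CPM with WT, and 8.89, 7.39 and 10.3 CPM with GFP. The WT libraries were again highest, and the Mut_IDR3 and ΔIDR3 libraries overlapped the GFP range (log2 fold change 0.84 ± 0.15, adjusted p = 0.000186, for WT against GFP).

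ZBTB9 stood at 15.9, 17.1 and 13.6 CPM with Mut_IDR3, 15.1, 15.4 and 13.7 CPM with ΔIDR3, 19.2, 17.2 and 16.8 CPM with WT, and 12.8, 8.01 and 11 CPM with GFP. All 9 libraries with a TFAP2β construct were above the 3 GFP libraries, and the WT change was 0.74 ± 0.14 (adjusted p = 0.000421). ZBTB45, described in glial differentiation in the mouse, stood at 17.4, 17.2 and 17.7 CPM with Mut_IDR3, 19.4, 18.5 and 18.3 CPM with ΔIDR3, 19.9, 20.1 and 21.8 CPM with WT, and 13.9, 14.7 and 13.8 CPM with GFP. Here too the 9 construct libraries were above the 3 GFP libraries (log2 fold change 0.54 ± 0.08, adjusted p = 2.89e-05, for WT). ZBTB46, a marker of classical dendritic cells, stood at 10.2, 10.7 and 11.5 CPM with Mut_IDR3, 11, 7.9 and 9.19 CPM with ΔIDR3, 13.2, 11.2 and 10.5 CPM with WT, and 7.71, 8.66 and 8.94 CPM with GFP. It rose with WT (log2 fold change 0.46 ± 0.14, adjusted p = 0.00892), and the call was lost without WT replicate 1 (adjusted p = 0.0515).

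The other 5 that rose did so by log2 fold changes of 0.30 to 0.41. They were ZBTB4, a binder of methylated DNA (0.30), ZBTB7B, the ThPOK factor of helper T cells (0.34), ZBTB39 (0.34), ZBTB22 (0.39) and ZBTB17, the MYC partner Miz-1 (0.41). Of these, ZBTB7B and ZBTB22 had overlapping libraries. ZBTB7B lost its call without WT replicate 1, WT replicate 3, Mut_IDR3 replicate 3, GFP replicate 2 or GFP replicate 3. ZBTB22 lost it without WT replicate 1, WT replicate 3, GFP replicate 1 or GFP replicate 3.

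The largest falls lay close together, from -0.98 to -0.83. ZBTB26 stood at 17.8, 12.5 and 15.7 CPM with Mut_IDR3, 14.4, 20.6 and 16.2 CPM with ΔIDR3, 10.2, 12.1 and 12.4 CPM with WT, and 20.1, 24.1 and 24.2 CPM with GFP, and the WT libraries did not reach the GFP range (log2 fold change -0.98 ± 0.15, adjusted p = 5.25e-05). ZBTB8A stood at 8.58, 10.5 and 9.47 CPM with Mut_IDR3, 9.61, 8.34 and 7.77 CPM with ΔIDR3, 7.16, 6.78 and 6.35 CPM with WT, and 10.2, 13.6 and 15.5 CPM with GFP, where WT again lay below every GFP library (log2 fold change -0.95 ± 0.15, adjusted p = 7.49e-05). 179 bases of its exons overlap ZBTB8OS on the other strand.

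ZBTB1, needed for lymphoid development in the mouse and linked to DNA repair, stood at 14.6, 13.6 and 14.6 CPM with Mut_IDR3, 13.5, 20.1 and 18.1 CPM with ΔIDR3, 8.68, 11.7 and 11.8 CPM with WT, and 20.9, 20.1 and 20.9 CPM with GFP. The 3 WT libraries were lowest of all 12 (log2 fold change -0.94 ± 0.14, adjusted p = 4.34e-05, for WT against GFP). It lies head to head with ZBTB25, a repressor of T cell genes, and their exons overlap on opposite strands, so reads of the pair cannot be told apart if strand was not used. ZBTB25 stood at 12.5, 13.2 and 14 CPM with Mut_IDR3, 11.2, 12.3 and 12.6 CPM with ΔIDR3, 9.83, 9.86 and 8.28 CPM with WT, and 17.2, 15 and 17.2 CPM with GFP, and it also fell with WT (log2 fold change -0.82 ± 0.11, adjusted p = 1.18e-05).

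ZBTB11, linked to mitochondrial function and to neutrophil development in zebrafish, stood at 28.5, 25.5 and 23.9 CPM with Mut_IDR3, 27.4, 31.9 and 29.3 CPM with ΔIDR3, 16.6, 21.5 and 22.5 CPM with WT, and 38, 33.2 and 42.2 CPM with GFP. The WT libraries were below all other libraries (log2 fold change -0.90 ± 0.12, adjusted p = 1.5e-05, for WT against GFP). ZBTB24, mutated in the immunodeficiency syndrome ICF and an activator of CDCA7, stood at 12.6, 12.2 and 13.5 CPM with Mut_IDR3, 16.8, 19.1 and 16.3 CPM with ΔIDR3, 7.63, 7.99 and 9.63 CPM with WT, and 15.1, 14.8 and 15.4 CPM with GFP. Its WT libraries lay at 7.63 to 9.63 CPM and the other 9 libraries at 12.2 to 19.1 CPM (log2 fold change -0.84 ± 0.11, adjusted p = 1.08e-05, for WT against GFP). Exons of ZBTB24 overlap MICAL1 on the same strand. ZBTB33, which encodes the methyl-DNA binder Kaiso, stood at 25.5, 19.4 and 19.8 CPM with Mut_IDR3, 21.9, 22.1 and 27.5 CPM with ΔIDR3, 14.5, 18 and 19.7 CPM with WT, and 28.7, 29.6 and 34.6 CPM with GFP. WT lay below GFP without overlap (log2 fold change -0.83 ± 0.14, adjusted p = 0.000103).

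The remaining falls with WT were ZBTB6 (-0.76), ZBTB37 (-0.73), ZBTB38 (-0.59), ZBTB44 (-0.55) and ZBTB14 (-0.50). The 15 tested genes that were not called had log2 fold changes of -0.59 to 0.68. ZBTB7A, a repressor of glycolysis genes, was among them at 0.19 (adjusted p = 0.0784), and ZBTB43 was at 0.24 (adjusted p = 0.05004).

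**Figure D1:**
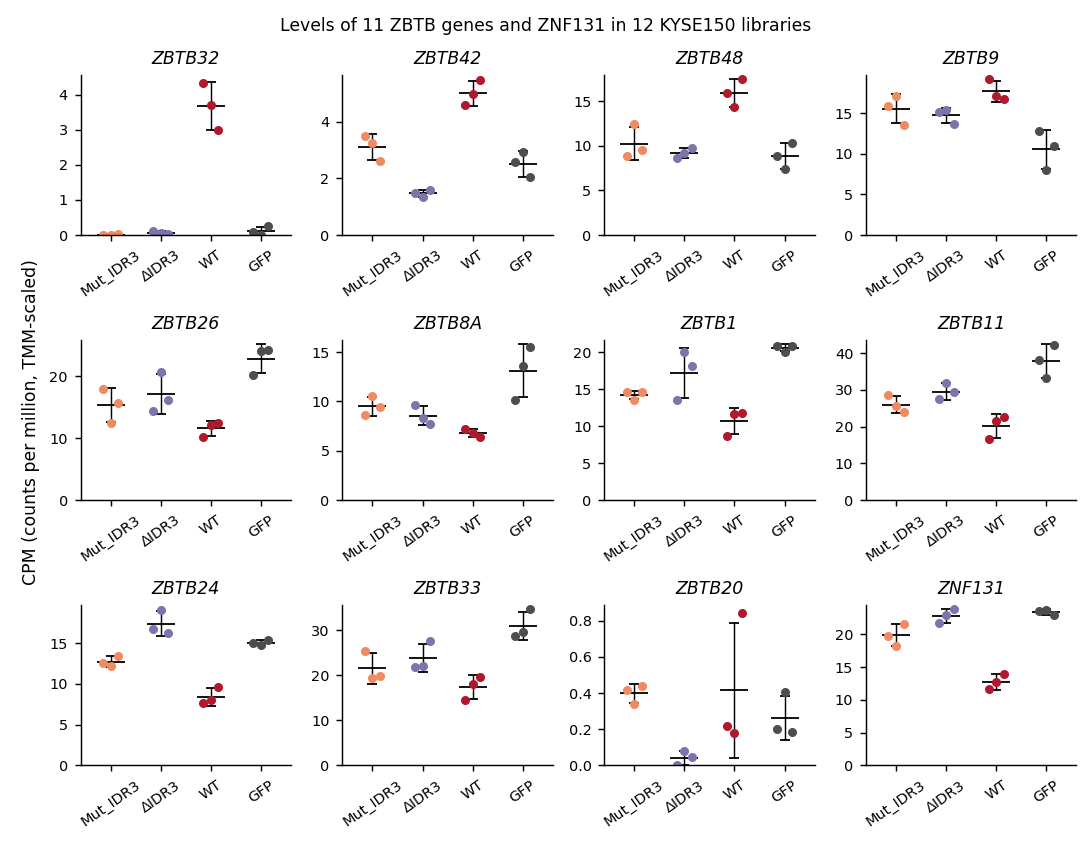
Levels of 11 ZBTB genes and ZNF131 in CPM (vertical axes, each from 0) in the 12 libraries, by group. Coloured points are libraries, and the black line and bars are the mean ± SD of 3. ZBTB32 is near 0 outside the WT libraries, ZBTB42 is lowest with ΔIDR3, and ZBTB24 is lowest with WT.

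Genes that rose and genes that fell with WT differed in base composition. The 11 that rose had a GC content of 49.4 to 65.4% in their longest transcript (median 60.6%), the 12 that fell had 34.9 to 41.6% (median 39.9%), and the 15 not called had 32.5 to 63.2%. The median over 12724 tested genes with a value was 48.8%. Across the 38 genes Spearman's rho of GC content with the WT log2 fold change was 0.71, and across the 12724 genes it was 0.51. Genes share the 12 libraries and are not independent replicates. After removal of the GC trend of all genes, 17 ZBTB genes were called (9 higher, 8 lower), or 44.7%, against 48% of all features, and 12 of the 23 were still called in the same direction. These were ZBTB32, ZBTB39, ZBTB42, ZBTB45, ZBTB48 and ZBTB9 above GFP, and ZBTB1, ZBTB11, ZBTB24, ZBTB25, ZBTB26 and ZBTB8A below it. The calls of ZBTB17, ZBTB22, ZBTB4, ZBTB46 and ZBTB7B above GFP and of ZBTB14, ZBTB33, ZBTB37, ZBTB38, ZBTB44 and ZBTB6 below it were lost. ZBTB4, ZBTB7B and ZBTB44 crossed 0 there, at -0.058, -0.00083 and 0.0046. ZBTB10, ZBTB21 and ZBTB43 became called above GFP, and ZBTB12 and ZBTB47 below it. ZBTB21, at -0.10 and not called as deposited, stood at 0.54 after the removal (adjusted p = 4.46e-05).

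**Figure D2:**
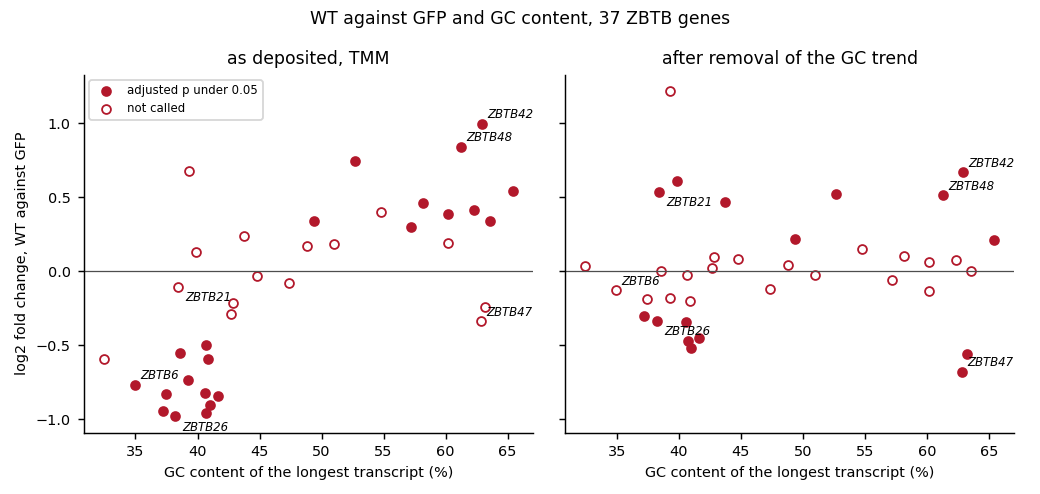
Log2 fold change of WT against GFP (vertical axis) against the GC content of the longest transcript in percent (horizontal axis) for 37 ZBTB genes, all tested ones but ZBTB32, before (left) and after (right) removal of the GC trend. Filled points have an adjusted p under 0.05. On the left the filled points above 0 lie at 49.4% GC or more and those below 0 at 41.6% or less.

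By role, the 3 ZBTB binders of methylated DNA were all called with WT, ZBTB4 above GFP and ZBTB33 and ZBTB38 below it, and none of the 3 was called after removal of the GC trend. Of the 9 tested ZBTB regulators of lymphoid and myeloid lineages, 4 rose (ZBTB32, ZBTB46, ZBTB17 and ZBTB7B) and 3 fell (ZBTB1, ZBTB24 and ZBTB25). Their median log2 fold change was 0.34, which became -0.00083 after removal of the GC trend. Of 5 ZBTB factors of telomeres and genome stability, ZBTB48 rose, ZBTB1 and ZBTB24 fell, and ZBTB10 and ZBTB40 were not called. The last 2 lists share ZBTB1 and ZBTB24. Over all features 54.9% were called, and with so few genes a list these counts show no trait of a role.

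The altered forms were set against GFP to see which of these changes they also gave. With Mut_IDR3, 13 of 38 ZBTB genes were called (34.2%), against 21.1% of all features, and 2 were higher and 11 lower, against 11.2% and 9.85% of all features. With ΔIDR3, 12 were called (31.6%), against 29% of all features, and 2 were higher and 10 lower, against 15.6% and 13.4%. The median log2 fold changes of the 38 were -0.10 with Mut_IDR3 and -0.20 with ΔIDR3, against -0.01 and -0.02 over all features. The Mut_IDR3 count was 6 without Mut_IDR3 replicate 2 and 7 without GFP replicate 3, or 15.8% and 18.4%, where the share of all features called was also lower, at 10.3% and 11.2%. The genes lower with Mut_IDR3 had a GC content of 34.9 to 43.7%, and those lower with ΔIDR3 34.9 to 62.9%. Across the 38 genes Spearman's rho between GC content and the change was 0.56 with Mut_IDR3 and 0.37 with ΔIDR3, against 0.43 and 0.19 across the 12724 genes. The Mut_IDR3 count was 4 after removal of the GC trend (0 higher and 4 lower), or 10.5%, against 15.1% of all features. The ΔIDR3 count was then 10 (1 higher and 9 lower), or 26.3%, against 31.5%. With the length trend removed the counts were 9 with Mut_IDR3 (23.7%, against 20.1%) and 13 with ΔIDR3 (34.2%, against 29.5%). In both directions together, the Mut_IDR3 share was thus above the background as deposited and nearer to it with the length trend removed. It was not above the background after removal of the GC trend. The ΔIDR3 share was near the background each time. By direction, 28.9% of the 38 were lower with Mut_IDR3 as deposited and 26.3% with ΔIDR3, against 9.85% and 13.4% of all features. The share higher was 5.26% with either form, against 11.2% and 15.6%. After removal of the GC trend the medians of the 38 were -0.12 with Mut_IDR3 and -0.20 with ΔIDR3. The 3 comparisons with GFP share the same control libraries.

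ZBTB9 and ZBTB45 were called above GFP in all 3 comparisons. The ZBTB9 change was 0.55 ± 0.14 (adjusted p = 0.0146) with Mut_IDR3, lost without Mut_IDR3 replicate 2 or GFP replicate 2. With ΔIDR3 it was 0.48 ± 0.14 (adjusted p = 0.0216), lost without ΔIDR3 replicate 1 or 2 or GFP replicate 2 or 3. After removal of the GC trend ZBTB9 was called with WT and with neither altered form. ZBTB45 changed by 0.30 ± 0.08 (adjusted p = 0.0142) with Mut_IDR3, a call lost without GFP replicate 3 or with the GC trend removed. It changed by 0.40 ± 0.08 (adjusted p = 0.00129) with ΔIDR3.

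ZBTB6, ZBTB8A, ZBTB11, ZBTB25, ZBTB26, ZBTB33 and ZBTB37 were called below GFP in all 3 comparisons. With the GC trend removed, ZBTB11 alone of these 7 was still called lower in all 3. With Mut_IDR3 the calls of ZBTB6, ZBTB8A, ZBTB25, ZBTB26 and ZBTB33 were then lost, with ΔIDR3 those of ZBTB26 and ZBTB33, and with WT those of ZBTB6, ZBTB33 and ZBTB37. ZBTB37 stood at 5.46, 3.99 and 5.66 CPM with Mut_IDR3, 4.82, 6.47 and 5.9 CPM with ΔIDR3, 4.32, 5.56 and 5.43 CPM with WT, and 9.73, 8.01 and 7.74 CPM with GFP. No construct library reached the lowest GFP library (log2 fold change -0.75 ± 0.18, adjusted p = 0.00846, for Mut_IDR3). With ΔIDR3 the change was -0.57 ± 0.17 (adjusted p = 0.0243), lost without ΔIDR3 replicate 1 or GFP replicate 1. ZBTB38, a binder of methylated DNA, stood at 9.39, 11.6 and 12.7 CPM with Mut_IDR3, 13, 14.9 and 16.1 CPM with ΔIDR3, 10.1, 10.9 and 13.3 CPM with WT, and 16.1, 17.1 and 18.5 CPM with GFP. It fell with Mut_IDR3 (log2 fold change -0.62 ± 0.13, adjusted p = 0.00537), and the ΔIDR3 value was -0.23 ± 0.13 (adjusted p = 0.205), not called. ZBTB1 was also called below GFP with Mut_IDR3 and not with ΔIDR3, the Mut_IDR3 change being -0.53 ± 0.14 (adjusted p = 0.0147). This call was lost without Mut_IDR3 replicate 2 and with the GC trend removed. Neither ZBTB38 nor ZBTB1 was called for Mut_IDR3 against ΔIDR3, so a difference between the 2 altered forms was not shown. ZBTB26 fell with Mut_IDR3 (log2 fold change -0.57 ± 0.15, adjusted p = 0.0137), a call lost without Mut_IDR3 replicate 2 or GFP replicate 3. ZBTB8A fell with ΔIDR3 (log2 fold change -0.61 ± 0.15, adjusted p = 0.00659). Of the 7 genes below GFP in all 3 comparisons, ZBTB25, ZBTB8A and ZBTB33 were called with Mut_IDR3 in 5, 7 and 9 of the 12 fits that left out 1 library. With ΔIDR3, ZBTB33, ZBTB26 and ZBTB11 were called in 5, 7 and 8 of them.

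ZBTB42 was called on opposite sides of GFP by 2 forms. It was above GFP with WT, below it with ΔIDR3 (log2 fold change -0.75 ± 0.21, adjusted p = 0.0126), and not called with Mut_IDR3 (log2 fold change 0.31 ± 0.20, adjusted p = 0.294). ZBTB5, described as a repressor of CDKN1A, was called with ΔIDR3 (log2 fold change -0.46 ± 0.10, adjusted p = 0.00354). ZBTB43 was called below GFP with Mut_IDR3 (-0.37) and ΔIDR3 (-0.39), and ZBTB21 with Mut_IDR3 (-0.28), a call made in 5 of the 12 fits that left out 1 library. The call of ZBTB43 with Mut_IDR3 was lost without Mut_IDR3 replicate 1 or GFP replicate 1, and those of ZBTB43 and ZBTB21 with Mut_IDR3 were lost with the GC trend removed.

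**Figure D3:**
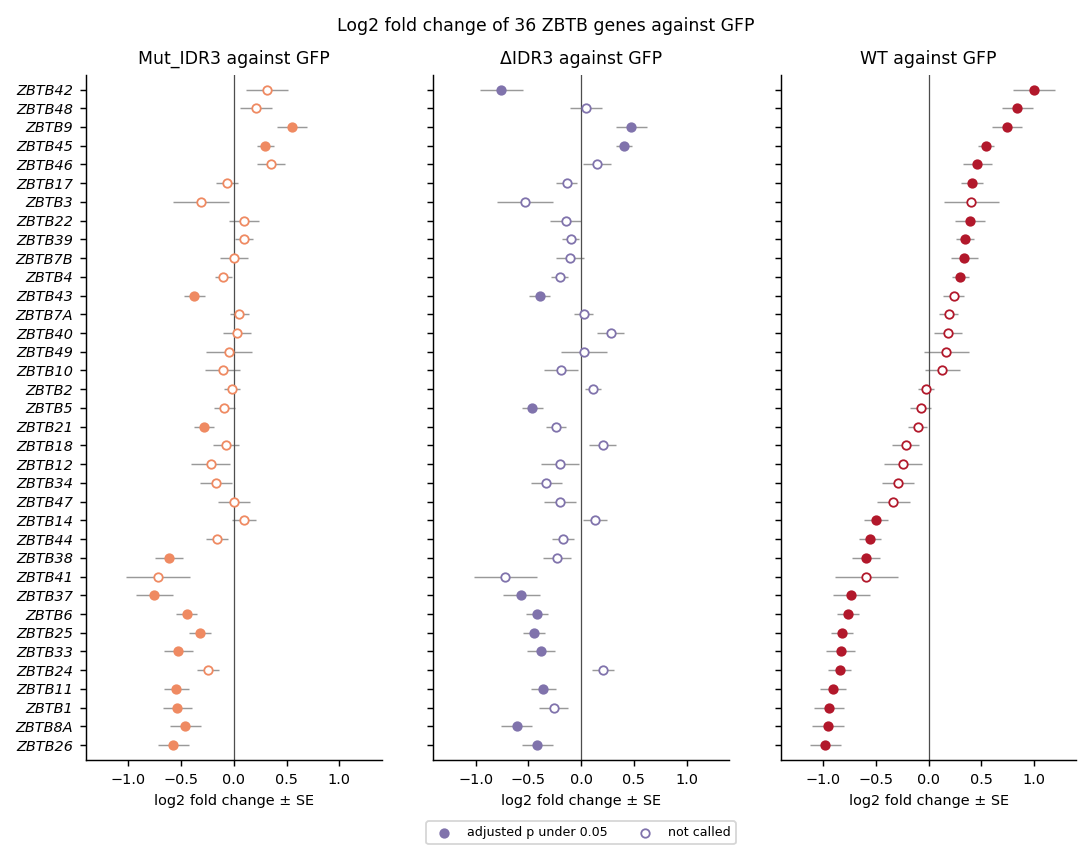
Log2 fold change ± SE against GFP (horizontal axes) of 36 tested ZBTB genes, ordered by their WT value, for Mut_IDR3, ΔIDR3 and WT. Filled points have an adjusted p under 0.05, and ZBTB32 and ZBTB20 are left out because their values would stretch the axes. The called points of the altered forms are mostly below 0.

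The altered forms were then set against WT, which tests the difference between their changes and that of WT. With Mut_IDR3, 19 of 38 ZBTB genes differed from WT (9 higher, 10 lower), or 50%, against 44.1% of all features (23.2% higher and 20.9% lower). With ΔIDR3, 23 of 38 differed (11 higher, 12 lower), or 60.5%, against 52.3% (27.2% and 25%). Both shares are near the background. Spearman's rho of GC content with these changes was -0.59 with Mut_IDR3 and -0.58 with ΔIDR3 across the 38 genes, against -0.39 and -0.44 across the 12724 genes. The Mut_IDR3 count was 12 without Mut_IDR3 replicate 1 (31.6%, against 36.5% of all features). After removal of the GC trend the count with Mut_IDR3 was 11 (3 higher, 8 lower), or 28.9%, against 41.1% of all features. With ΔIDR3 it was 15 (3 higher, 12 lower), or 39.5%, against 49%, so both shares were then below the background. With the length trend removed the counts were 14 (2 higher, 12 lower) and 22 (6 higher, 16 lower), or 36.8% and 57.9%, against 43% and 50.6%. Of the genes called above WT, ZBTB14 and ZBTB24 alone were still called after removal of the GC trend, and with both forms. With Mut_IDR3 the other 7 calls were lost, those of ZBTB1, ZBTB6, ZBTB8A, ZBTB11, ZBTB25, ZBTB26 and ZBTB44. With ΔIDR3 the other 9 were lost, those of ZBTB1, ZBTB6, ZBTB11, ZBTB18, ZBTB25, ZBTB26, ZBTB33, ZBTB38 and ZBTB44. Removal of the length trend kept 2 of the 9 calls above WT with Mut_IDR3 and 6 of the 11 with ΔIDR3.

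ZBTB32 stood near 0 with either altered form, as it did with GFP. It was tested through the WT libraries alone, so its calls against WT are a description of a gene kept for its high group. The Mut_IDR3 libraries held 1 count in all and the WT libraries 407, a ratio of 0.00243 (95% counting interval 6.15e-05 to 0.0136, adjusted p = 5.13e-06). The ΔIDR3 libraries held 8, a ratio of 0.0183 to WT (95% counting interval 0.00784 to 0.0364, adjusted p = 9.7e-06). Against GFP neither form was called, with Mut_IDR3 at an adjusted p of 0.0575 and ΔIDR3 at 0.493.

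ZBTB42 fell below WT by 0.69 ± 0.20 on the log2 scale with Mut_IDR3 (adjusted p = 0.0101), a call lost without Mut_IDR3 replicate 3, and the change with ΔIDR3 was -1.75 ± 0.20 (adjusted p = 4.79e-06). ZBTB48 was also below WT with both forms, with Mut_IDR3 at -0.63 ± 0.15 (adjusted p = 0.00271) and ΔIDR3 at -0.79 ± 0.15 (adjusted p = 0.000343). ZBTB3 stood at 2.25, 3.49 and 2.6 CPM with Mut_IDR3, 2.69, 2.75 and 1.74 CPM with ΔIDR3, 3.44, 4.94 and 5.36 CPM with WT, and 2.46, 3.63 and 4.28 CPM with GFP. Its Mut_IDR3 and WT libraries overlapped (log2 fold change -0.72 ± 0.26, adjusted p = 0.0379), and the call was lost without WT replicate 2 or 3 or Mut_IDR3 replicate 1 or 3. The ΔIDR3 libraries of ZBTB3 lay below the WT libraries (log2 fold change -0.94 ± 0.26, adjusted p = 0.00795). The others below WT were ZBTB4, ZBTB7B, ZBTB17, ZBTB39 and ZBTB43 with both forms, ZBTB45 with Mut_IDR3, and ZBTB5 and ZBTB22 with ΔIDR3. ZBTB43 had the smallest adjusted p of these with ΔIDR3 (log2 fold change -0.63 ± 0.10, adjusted p = 7.11e-05).

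ZBTB24 was the gene most above WT with both forms, by 0.60 ± 0.11 (adjusted p = 0.00042) with Mut_IDR3 and 1.05 ± 0.11 (adjusted p = 1.49e-06) with ΔIDR3. ZBTB14 stood at 16, 12.9 and 13.9 CPM with Mut_IDR3, 15.4, 14.2 and 14.2 CPM with ΔIDR3, 8.68, 10.9 and 8.77 CPM with WT, and 13.4, 13.6 and 13 CPM with GFP. WT was lowest, and the altered forms lay between 12.9 and 16 CPM (log2 fold change 0.60 ± 0.11, adjusted p = 0.000631, for Mut_IDR3 against WT). With ΔIDR3 the ZBTB14 change was 0.63 ± 0.11 (adjusted p = 0.000259). ZBTB25 was above WT with Mut_IDR3 (log2 fold change 0.50 ± 0.11, adjusted p = 0.0014). So was ZBTB8A (log2 fold change 0.49 ± 0.15, adjusted p = 0.0154), a call lost without Mut_IDR3 replicate 2. ZBTB1 and ZBTB26 were above WT with ΔIDR3, by 0.68 ± 0.14 (adjusted p = 0.000805) and 0.56 ± 0.15 (adjusted p = 0.00535). The others above WT were ZBTB6, ZBTB11 and ZBTB44 with both forms, ZBTB1 and ZBTB26 with Mut_IDR3, and ZBTB18, ZBTB25, ZBTB33 and ZBTB38 with ΔIDR3. After removal of the GC trend ZBTB6 (-0.04 with Mut_IDR3, -0.13 with ΔIDR3) lay below WT, as did ZBTB25 (-0.0057), ZBTB33 (-0.03) and ZBTB44 (-0.04) with ΔIDR3, none of them called. ZBTB26 kept its call with Mut_IDR3 in 5 of the 12 fits that left out 1 library, and ZBTB38 its call with ΔIDR3 also in 5. Below WT with Mut_IDR3, ZBTB7B kept its call in 6 of them and ZBTB39 in 9. Calls below WT lost after removal of the GC trend were those of ZBTB3, ZBTB7B, ZBTB39 and ZBTB45 with Mut_IDR3. With ΔIDR3 they were those of ZBTB7B and ZBTB22.

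ZBTB20, known in liver as a repressor of alpha-fetoprotein, was the rarest tested member. It stood at 0.418, 0.339 and 0.441 CPM with Mut_IDR3, 0, 0.0779 and 0.0484 CPM with ΔIDR3, 0.22, 0.178 and 0.845 CPM with WT, and 0.203, 0.404 and 0.185 CPM with GFP, from 45 counts with Mut_IDR3, 5 with ΔIDR3, 49 with WT and 28 with GFP. WT replicate 3 stood apart from the other WT libraries. ZBTB20 passed the filter on low counts through the Mut_IDR3 group, whose 3 libraries all reached the level of 0.263 CPM, against 0 ΔIDR3, 1 WT and 1 GFP libraries, so its calls are a description of a gene kept for its high group. The ΔIDR3 change against WT was -3.23 ± 0.90 (adjusted p = 0.00701), and without WT replicate 3 it was -2.17 with an adjusted p of 0.0808.

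Mut_IDR3 was also set against ΔIDR3. Here 4 of 38 ZBTB genes were called (10.5%), 3 higher and 1 lower with Mut_IDR3, against 10.8% of all features (5.54% and 5.24%), so the share is near the background. The 34 not called had log2 fold changes of -2.53 (ZBTB32) to 0.24 (ZBTB22), which does not show that the forms act alike on them. The count was 2 without Mut_IDR3 replicate 1, Mut_IDR3 replicate 3 or ΔIDR3 replicate 1 (5.26%, against 6.05%, 5.95% and 7.55% of all features). It was 1 without Mut_IDR3 replicate 2 or ΔIDR3 replicate 2 (2.63%, against 5.4% and 5.57%). The share of all features called thus also fell in these fits. ZBTB42 was higher with Mut_IDR3 (log2 fold change 1.07 ± 0.20, adjusted p = 0.00458) and was called whichever 1 of the 12 libraries was left out. ZBTB5 stood at 18.9, 20.2 and 23.7 CPM with Mut_IDR3, 15.6, 14.6 and 18.3 CPM with ΔIDR3, 21.3, 22 and 20.1 CPM with WT, and 22.5, 21.5 and 22.8 CPM with GFP. It was higher with Mut_IDR3 (log2 fold change 0.37 ± 0.10, adjusted p = 0.031), a call lost without Mut_IDR3 replicate 2 or 3 or ΔIDR3 replicate 1 or 2. ZBTB24 was lower (log2 fold change -0.45 ± 0.11, adjusted p = 0.0148), lost without Mut_IDR3 replicate 1 or 2 or ΔIDR3 replicate 2. ZBTB20 was higher (log2 fold change 3.16 ± 0.90, adjusted p = 0.0369), and it kept its call in 3 of the 12 fits that left out 1 library, those without a WT library.

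**Figure D4:**
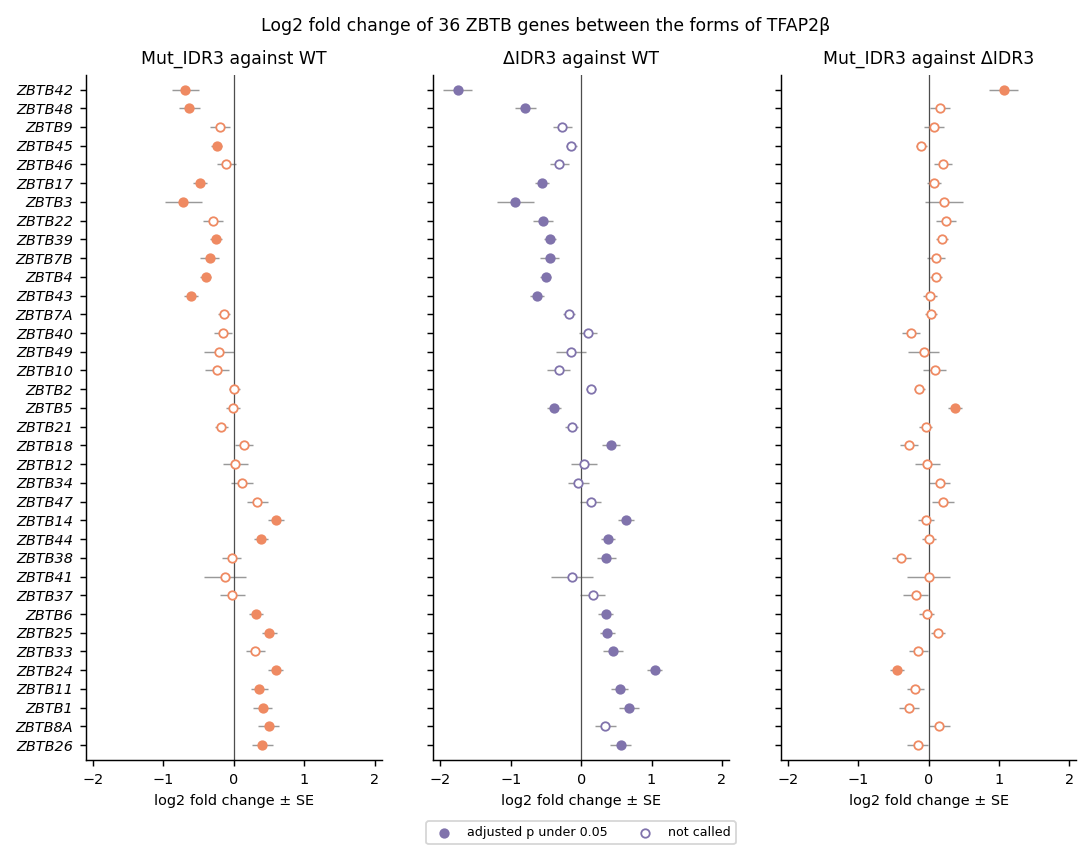
Log2 fold change ± SE (horizontal axes) of 36 tested ZBTB genes for Mut_IDR3 against WT, ΔIDR3 against WT and Mut_IDR3 against ΔIDR3, in the order of their WT change against GFP. Filled points have an adjusted p under 0.05, and ZBTB32 and ZBTB20 are left out because their values would stretch the axes. ZBTB42 lies lowest and ZBTB24 highest for ΔIDR3 against WT.

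9 tested members were called in none of the 6 comparisons. They were ZBTB2, ZBTB7A, ZBTB10, ZBTB12, ZBTB34, ZBTB40, ZBTB41, ZBTB47 and ZBTB49. ZBTB2, one of the more abundant members, ranged from 24.1 to 28.9 CPM over the 12 libraries.

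ZNF131 stood at 19.7, 18.3 and 21.6 CPM with Mut_IDR3, 21.8, 22.9 and 23.8 CPM with ΔIDR3, 11.7, 12.7 and 14 CPM with WT, and 23.6, 23.8 and 22.9 CPM with GFP. It fell with WT (log2 fold change -0.87 ± 0.09, adjusted p = 1.47e-06), and its WT libraries were the lowest of the 12. Against GFP neither altered form was called, with Mut_IDR3 at -0.24 ± 0.09 (adjusted p = 0.0733) and ΔIDR3 at -0.04 ± 0.09 (adjusted p = 0.801). Both were above WT, by 0.64 ± 0.09 (adjusted p = 5.8e-05) and 0.84 ± 0.09 (adjusted p = 2.53e-06), and these calls and the WT fall were also made after removal of the GC trend.

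8 of 9 other genes of the BTB and zinc-finger design outside the naming rule were tested. With WT, 3 rose and 2 fell (62.5%, against 54.9% of all features). HIC2 (0.69), PATZ1 (0.51) and BCL6 (0.46) rose, and ZNF131 and MYNN (-0.79) fell. The lowest log2 fold change of the 8 was -1.44, in a gene that was not called. BCL6, the repressor of germinal centre B cells, stood at 7.1, 6.54 and 6.26 CPM with Mut_IDR3, 3.69, 2.57 and 2.78 CPM with ΔIDR3, 6.53, 5.18 and 6.57 CPM with WT, and 4.87, 3.45 and 4.99 CPM with GFP. It was called above GFP with Mut_IDR3 (log2 fold change 0.58 ± 0.19, adjusted p = 0.0385) and with WT (log2 fold change 0.46 ± 0.19, adjusted p = 0.049). It was called below GFP with ΔIDR3 (log2 fold change -0.56 ± 0.19, adjusted p = 0.0381). Of the 12 fits that left out 1 library, 6 kept the Mut_IDR3 call, 7 the ΔIDR3 call and 4 the WT call. After removal of the GC trend the calls with Mut_IDR3 and WT were lost. Of the 8, 3 were called for Mut_IDR3 against WT (37.5%, against 44.1% of all features) and 5 for ΔIDR3 against WT (62.5%, against 52.3%).

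The proteins that BTB factors recruit or pair with are encoded by 17 listed genes, all of them tested. With WT 5 rose and 4 fell (52.9%, against 54.9% of all features). MYC, the partner of ZBTB17, rose by 0.85, and BCORL1 (0.59), GPS2 (0.53), SIN3B (0.46) and CTBP2 (0.13) also rose, CTBP2 keeping its call in 6 of the 12 fits that left out 1 library. TBL1XR1, a subunit of the NCOR complex, fell most, at -1.18, and CUL3 (-0.71), HDAC2 (-0.68) and NCOR1 (-0.52) also fell. MYC stood at 19.8, 19.5 and 20.6 CPM with Mut_IDR3, 23.7, 21.6 and 23.6 CPM with ΔIDR3, 39.5, 40.4 and 38 CPM with WT, and 20.1, 22.5 and 22.6 CPM with GFP, so the WT libraries alone were high. TBL1XR1 stood at 103, 96.5 and 99.4 CPM with Mut_IDR3, 89.5, 109 and 105 CPM with ΔIDR3, 52.6, 58.4 and 63.8 CPM with WT, and 137, 119.5 and 138 CPM with GFP, with WT lowest, GFP highest and both altered forms between them. With Mut_IDR3 5 of the 17 rose and 2 fell against GFP (41.2%, against 21.1% of all features), and with ΔIDR3 7 rose and 2 fell (52.9%, against 29%). Against WT, 7 were higher and 2 lower with Mut_IDR3 (52.9%, against 44.1%), and 8 were higher and 3 lower with ΔIDR3 (64.7%, against 52.3%). After removal of the GC trend the WT counts were 3 higher and 6 lower of the 17, against 48% of all features called, so near the background. BCORL1, SIN3B, HDAC2 (-0.04) and CUL3 (-0.07) lost their calls. TBL1XR1 and NCOR1 kept theirs, and the other lower calls were of genes not called before. For Mut_IDR3 against GFP the counts after removal of the GC trend were 4 higher and 1 lower of the 17, against 15.1% of all features. For ΔIDR3 against GFP they were 8 higher and 2 lower, against 31.5%. With both altered forms the share of the 17 thus stayed above that of all features.

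6 genes described as targets of ZBTB factors were also listed. CDKN1A, the cell-cycle inhibitor regulated by ZBTB17 and ZBTB5, stood at 38.1, 39.7 and 36.6 CPM with Mut_IDR3, 34.4, 33.4 and 32 CPM with ΔIDR3, 68.5, 65.5 and 77.7 CPM with WT, and 29.2, 29.9 and 24.8 CPM with GFP. It was highest in the WT libraries (log2 fold change 1.34 ± 0.09, adjusted p = 1.39e-08). SLC2A3, a glucose transporter gene repressed by ZBTB7A, stood at 39.8, 37.9 and 37.3 CPM with Mut_IDR3, 32.9, 32 and 32.2 CPM with ΔIDR3, 117, 117 and 112 CPM with WT, and 28.1, 33.5 and 33.7 CPM with GFP, and it rose with WT (log2 fold change 1.86 ± 0.07, adjusted p = 6.03e-11). The glycolysis genes PKM (0.66) and PFKP (0.47) rose as well, and CDKN2B was not called (0.14). With 5 of the 6 called with WT, against 54.9% of all features, the list is too short to read a share from. CDCA7, the target of ZBTB24, stood at 158, 152 and 159 CPM with Mut_IDR3, 174, 182 and 176 CPM with ΔIDR3, 108, 124 and 99.9 CPM with WT, and 130.4, 139.5 and 145 CPM with GFP. It was below GFP with WT (log2 fold change -0.32 ± 0.07, adjusted p = 0.00105), but after removal of the GC trend its WT value was 0.16 (adjusted p = 0.0222), so its direction depends on that step. Both altered forms were above WT in CDCA7, Mut_IDR3 by 0.50 ± 0.07 (adjusted p = 4.39e-05) and ΔIDR3 by 0.68 ± 0.07 (adjusted p = 1.34e-06).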

How the data were processed

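Raw counts per gene from 12 RNA-seq libraries were used as deposited by the authors. Reads were processed with HISAT2, StringTie and Trim Galore on GRCh38/hg38, per the submitters' processing notes. Which program counted the reads, with which annotation and strand setting, is not given in the sources used here, nor is the treatment of multiply mapped reads. RNA was prepared, per the labels' protocols, with a Qiagen kit and libraries with a SMARTer mRNA kit.

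Of 24302 features, 14792 passed edgeR's filterByExpr. After TMM scaling, edgeR's quasi-likelihood test (edgeR 4.0.16, R 4.3.3) was run over 4 groups with 8 residual degrees of freedom, Benjamini-Hochberg adjustment within each comparison and a threshold of 0.05. The smallest p that an exact test on 2 groups of 3 allows is 0.1. Libraries held 30.7 to 43.5 M counts, and counting intervals (95%) and the floor of 3 counts cover counting error only. GC content and length came from the longest GENCODE 29 transcript, and trends were removed with offsets set in 20 bins, using genes that averaged 1 CPM or more. All 40 ZBTB genes and 86.0% of the tested features had such a value, and the other features were left uncorrected. Shares of all features called after removal of a trend therefore mix corrected and uncorrected features. The replicates of a group differed by more than sampling noise, so none was counted as a repeat. DESeq2 1.42.0, other scalings and filters, the replicate block and fits without each library were alternatives. Code was tested on simulated data. Members and lists were chosen with earlier results of these data known. Values in every library are given for the largest changes of each comparison and for ZNF131. Up to 6 per direction were taken for WT against GFP, 4 for comparisons between forms and 3 for altered forms against GFP, and genes outside the family were picked from the lists after their values were seen. One leukocyte marker and some overlapping genes are not reported here.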

Additional observations from a re-analysis of the deposited data

Results flagged for a closer look

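ZBTB42 was called on opposite sides of GFP by ΔIDR3 (log2 fold change -0.75 ± 0.21) and WT (1.00 ± 0.20). The difference itself, ΔIDR3 against WT, was -1.75 ± 0.20 (edgeR adjusted p = 4.79e-06), and every ΔIDR3 library lay below every WT library.

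BCL6 was called below GFP with ΔIDR3 (-0.56 ± 0.19) and above it with Mut_IDR3 (0.58 ± 0.19) and WT (0.46 ± 0.19). The tested differences were -1.01 ± 0.19 for ΔIDR3 against WT (edgeR adjusted p = 0.000349) and 1.14 ± 0.19 for Mut_IDR3 against ΔIDR3 (edgeR adjusted p = 0.00173). These 2 differences were called whichever 1 of the 12 libraries was left out, whereas the calls against GFP were kept in 6 of the 12 such fits for Mut_IDR3, 7 for ΔIDR3 and 4 for WT. Groups of 3 libraries were not examined for outlying libraries.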

How the results depend on the processing

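With any 1 library left out, the number of ZBTB genes called was 6 to 14 for Mut_IDR3 against GFP, 8 to 15 for ΔIDR3 against GFP, 21 to 24 for WT against GFP, 12 to 19 for Mut_IDR3 against WT, 18 to 24 for ΔIDR3 against WT and 1 to 5 for Mut_IDR3 against ΔIDR3. In a fit that gave the lowest count, the share of all features called was 10.3%, 20.9%, 48.4%, 36.5%, 45.5% and 5.4% in this order. With all libraries it was 21.1%, 29%, 54.9%, 44.1%, 52.3% and 10.8%. DESeq2, scaling by median ratios or upper quartiles, a filter of 1 CPM in 3 libraries or none, removal of the length trend, and fits on the 2 groups compared kept each of the 6 counts within 1.5 times of the reported one. With the GC trend removed the counts were 4 for Mut_IDR3 against GFP, 11 for Mut_IDR3 against WT and 15 for ΔIDR3 against WT, and the cause was not tested. The replicate numbers gave no clear sign of pairing, as 2 of 18 correlations of same-numbered libraries were over 0.1 (range -0.18 to 0.21). Libraries with different numbers were not compared, so whether the libraries were paired was not settled. With the replicate block the counts were 11, 12 and 23 for Mut_IDR3, ΔIDR3 and WT against GFP, 18 and 23 for Mut_IDR3 and ΔIDR3 against WT, and 4 for Mut_IDR3 against ΔIDR3. With the replicate block and the GC trend removed they were 3 for Mut_IDR3 against GFP and 10 for Mut_IDR3 against WT. With the GC trend removed, the log2 fold changes that crossed 0, among genes called before or after, were those of ZBTB4 (-0.058), ZBTB7B (-0.00083), ZBTB21 (0.54) and ZBTB44 (0.0046) for WT against GFP, ZBTB6 (-0.044) for Mut_IDR3 against WT, and ZBTB6 (-0.13), ZBTB25 (-0.0057), ZBTB33 (-0.034) and ZBTB44 (-0.044) for ΔIDR3 against WT. With the replicate block as well they were -0.057 for ZBTB4, 0.54 for ZBTB21 and 0.0055 for ZBTB44 against GFP, -0.045 for ZBTB6 with Mut_IDR3 against WT, and -0.13 for ZBTB6, -0.0044 for ZBTB25, -0.036 for ZBTB33 and -0.045 for ZBTB44 with ΔIDR3 against WT. Outside the family, those that crossed 0 with the GC trend removed were CDCA7 for WT against GFP (0.16), CTBP2 for Mut_IDR3 against WT (-0.18), and GPS2 (0.19), SIN3B (0.060), CTBP2 (-0.11) and PFKP (0.096) for ΔIDR3 against WT. With the replicate block as well they were 0.15, -0.18, 0.19, 0.059, -0.11 and 0.096 in the same order. With the length trend removed, CTBP2 was at -0.15 for Mut_IDR3 and -0.066 for ΔIDR3 against WT. Depth limits ZBTB20 and ZBTB32, whose counts outside WT were at most 45 in a group.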
